A study of Mus musculus with 4 samples.

Results

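The Hedgehog pathway in the lung runs from epithelium to mesenchyme, and 9 of its genes were followed here in mouse lungs of stage E16.5, sequenced as whole organs, in which the epithelium carried or had lost Stk11. The genes were Shh, Ptch1, Hhip, Boc, Smo, Sufu, Gli1, Gli2 and Gli3. They were taken by gene symbol from a deposited table of 22556 genes, in which all 9 were present. All 9 were tested, as part of the 13770 genes whose mean over the libraries reached 0.5 FPKM, a level in which reads are scaled to transcript length and sequencing depth.

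RNA was sequenced from 2 Control and 2 Shh-Stk11 lungs, named Control 1, Control 2, Shh-Stk11 1 and Shh-Stk11 2 after their labels. Control embryos had the genotype Shh-Cre; Stk11F/+ and Shh-Stk11 embryos the genotype Shh-Cre; Stk11F/F, so Controls had also lost Stk11 from 1 allele in the recombined cells. The labels gave C57BL/6 as the strain, whereas the methods of the study spoke of mixed backgrounds. Cre follows the expression of Shh itself, which marks the endoderm-derived epithelium, while mesenchyme, vessels and blood keep Stk11. In widely used Shh-Cre lines the recombinase sits inside the Shh gene and takes the place of a working copy. Whether this held for these embryos was not given in the sources used here, and it would apply to both genotypes alike.

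Hedgehog signalling starts with a secreted ligand, which in the lung is SHH from the epithelium. Without ligand the receptor PTCH1 keeps the membrane protein SMO inactive, and with ligand SMO is released and the GLI transcription factors switch on their targets in the surrounding mesenchyme. Ptch1, Gli1 and Hhip are themselves targets, so their transcript levels are commonly read as a measure of pathway activity. The pathway is needed for branching of the lung and for the growth and smooth muscle of its mesenchyme.

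The labels held for the targeted gene. Stk11 was at 43.99 FPKM in Control 1 and 45.5 FPKM in Control 2, whereas with both alleles floxed its level was 29.5 and 25.95 FPKM. The log2 fold change was -0.69 and its adjusted p in limma 0.0499. In 13 of 15 alternative settings this call was lost. Ddx3y, a Y-linked gene, reached 23.5 FPKM in Shh-Stk11 2, against 0.0285 FPKM or less elsewhere, so this library came from a male and the Shh-Stk11 replicates differed in sex. The low values corresponded to a depth of 31.0 M to 38.25 M reads per library. At this depth the 9 genes had from about 475 reads (Gli2 in Control 2) to about 8512 reads (Ptch1 in Shh-Stk11 1).

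None of the 9 Hedgehog genes passed an adjusted p of 0.05 in limma, and 1 of them, Hhip, had an unadjusted p under 0.05. Over all tested genes 2.27% passed the adjusted threshold and 15.2% had an unadjusted p under 0.05. Of the 9 genes, 6 had a positive and 3 a negative log2 fold change, with a median of 0.21, where the median over all tested genes was -0.05. The Shh-Stk11 and Control values did not overlap for 4 of the 9, which were Shh, Ptch1 and Hhip on the higher side and Smo on the lower side. Over all tested genes the values did not overlap for 46.8%, with 19.2% higher and 27.6% lower in Shh-Stk11 lungs. Without the male library Shh-Stk11 2, the log2 fold changes were 0.62 for Hhip, 0.072 for Shh, 0.54 for Ptch1 and -0.050 for Smo. The lone Shh-Stk11 library was then assumed to vary like the Controls, which alone gave the spread, so no call is read from that fit.

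**Figure D1:**
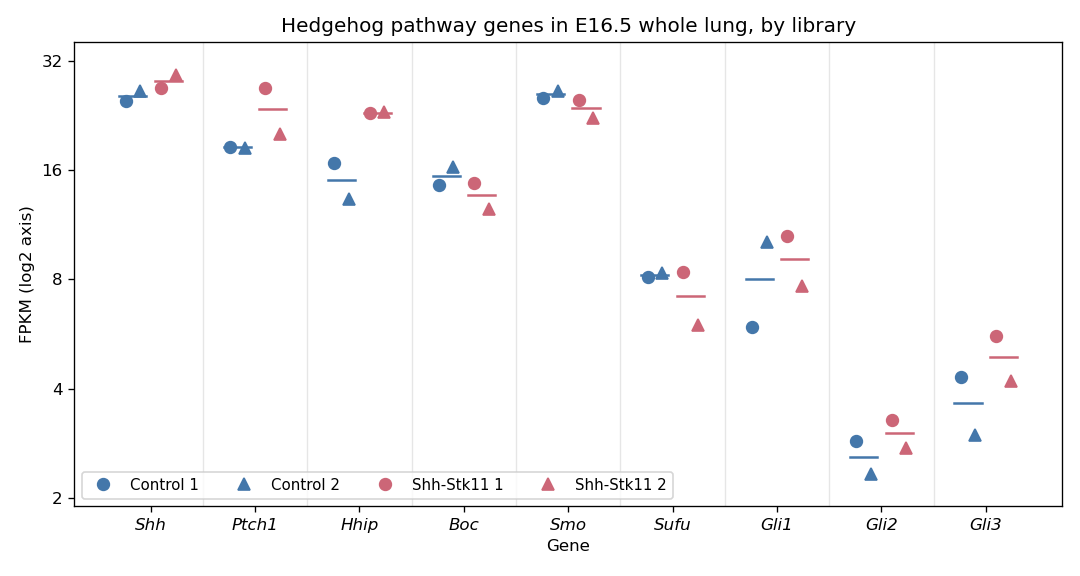
FPKM (log2 axis) of the 9 Hedgehog pathway genes in each of the 4 libraries, with Control in blue, Shh-Stk11 in red, circles for replicate 1, triangles for replicate 2 and bars for the group means. Hhip is at 22.98 and 23.2 FPKM in Shh-Stk11 lungs above both Controls, whereas the Gli1 values of the genotypes lie among each other.

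Shh encodes the ligand. Over Control 1, Control 2, Shh-Stk11 1 and Shh-Stk11 2, in that order, its level was 24.8, 26.5, 26.9 and 29.4 FPKM. Both Shh-Stk11 libraries were above both Controls, by a margin that was narrow beside the gap between the replicates. The Control mean was 25.6 ± 1.19 FPKM and the Shh-Stk11 mean 28.1 ± 1.73 FPKM (SD, n = 2), for a log2 fold change of 0.13 (95% confidence interval -0.16 to 0.43, limma adjusted p 0.658). The interval corresponds to a ratio between 0.896 and 1.34. The RNA genes 9530036O11Rik and Gm26894, on the opposite strand, overlap 28.4% of the annotated exonic bases of Shh in GENCODE M21, and their reads cannot be told from those of Shh without strand, which was not stated. 9530036O11Rik was itself listed at 0.277 to 0.387 FPKM.

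Because the ligand is made in the epithelium, its level was also set against epithelial genes. All 12 epithelial markers had a positive log2 fold change, with a median of 0.23, none past the adjusted threshold. Their summed level was 1258 and 1298 FPKM in Control against 1401 and 1606 in the Shh-Stk11 lungs. On the log2 scale, the Shh level minus the mean of these markers was -1.43 and -1.32 in the Controls and -1.49 and -1.51 in the Shh-Stk11 libraries, so relative to the epithelial markers Shh was slightly lower in both Shh-Stk11 libraries, by 0.13 on average. The markers were higher in Shh-Stk11 lungs, so this scale lowers the value of every gene. The log2 fold change of Shh as deposited was 0.13. How many of all tested genes were lower on this scale was not counted, so the lower value is not particular to Shh. In whole lung, a change in the share of epithelial cells and a change in RNA per cell cannot be told apart. The markers of distal tip and alveolar cells, the region where Shh is strongest, summed to 18470 and 16600 FPKM in Control against 8944 and 13150 in the Shh-Stk11 lungs, most of it from Sftpc, which encodes a surfactant protein. The 6 markers of this list did not share a direction, with 2 positive and 4 negative log2 fold changes between -0.76 and 0.72, and the single one with an unadjusted p under 0.05 was on the positive side.

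Ptch1 encodes the receptor for SHH and is a target of the pathway. It was at 18.6 and 18.5 FPKM in the Controls against 27.0 and 20.2 in the Shh-Stk11 lungs. The Controls were nearly equal, and Shh-Stk11 1 stood well above the other 3 libraries. The log2 fold change was 0.33 (95% confidence interval -0.06 to 0.73, limma adjusted p 0.408). Without Shh-Stk11 1 it was 0.13, and without Shh-Stk11 2 it was 0.54.

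Hhip encodes a cell surface protein that binds Hedgehog ligands and limits their reach, and it too is a target. In the same order of libraries its level was 16.7, 13.3, 22.98 and 23.2 FPKM. The Shh-Stk11 replicates were nearly equal and both exceeded the higher Control. The Control mean was 15.02 ± 2.43 FPKM and the Shh-Stk11 mean 23.1 ± 0.124 FPKM (SD, n = 2). The log2 fold change of 0.63 (SE 0.147, 95% confidence interval 0.27 to 0.98) was the largest of the 9 genes as deposited. It was not the largest with the length and GC trend removed (Gli1, Gli3 and Gli2 were above it), without Control 2 (Gli1 at 0.59 against 0.46) or without Shh-Stk11 2 (Gli3 at 0.624 against 0.620). Its limma adjusted p of 0.0953 (unadjusted 0.00447) missed the threshold. With the trend on transcript length and GC content removed, the value was 0.21 (95% confidence interval -0.08 to 0.49, limma adjusted p 0.482).

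The promoters of Ptch1 and Hhip are shown because these targets were the ones whose genotypes did not overlap. The RefSeq table of promoters (GRCm38.p6) held 6 of the 9 genes, without Shh, Gli1 and Boc. The windows lie on the minus strand, at chr13:63565736-63565985 for Ptch1 and at chr8:80058009-80058258 for Hhip. Each line gives the 250 bases before the annotated start, 5′ to 3′, with CG dinucleotides in capitals.
Ptch1: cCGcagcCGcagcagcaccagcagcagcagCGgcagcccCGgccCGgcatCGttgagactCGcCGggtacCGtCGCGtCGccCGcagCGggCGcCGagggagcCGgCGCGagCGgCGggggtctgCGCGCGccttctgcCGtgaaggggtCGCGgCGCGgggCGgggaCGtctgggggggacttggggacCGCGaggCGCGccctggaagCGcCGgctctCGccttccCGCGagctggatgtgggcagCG
Hhip: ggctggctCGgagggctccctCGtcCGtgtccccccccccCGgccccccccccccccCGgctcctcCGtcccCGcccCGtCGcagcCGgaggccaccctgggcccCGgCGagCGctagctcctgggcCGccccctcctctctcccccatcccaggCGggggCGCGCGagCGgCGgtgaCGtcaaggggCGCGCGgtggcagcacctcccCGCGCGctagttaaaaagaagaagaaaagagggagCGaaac
These windows held 41 CG dinucleotides in Ptch1 and 28 in Hhip, where the median over 32851 promoters was 6. At least as many were found in 1.09% of promoters for Ptch1 and in 7.61% for Hhip. The GLI motif GACCACCCA, searched on both strands as exact letters in windows of 250 bases before and 50 bases after the start, was present in 0 of the 6 promoters and in 0.253% of all promoters. This says only that these letters are not in these windows.

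Boc encodes a co-receptor that presents the ligand to PTCH1. It was at 14.6 and 16.3 FPKM in Control against 14.8 and 12.5 in the Shh-Stk11 lungs. The groups overlapped, and the log2 fold change was -0.18 (95% confidence interval -0.52 to 0.16, limma adjusted p 0.603). It was -0.063 without Shh-Stk11 2, -0.099 without Control 2 and -0.30 without Shh-Stk11 1.

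Smo encodes the transducer downstream of the receptor, and Sufu an inhibitor that holds GLI proteins back. Smo was at 25.3 and 26.5 FPKM in Control against 25.0 and 22.3 in the Shh-Stk11 lungs, lower in both Shh-Stk11 libraries but by only 0.13 on the log2 scale (95% confidence interval -0.43 to 0.17, limma adjusted p 0.674). With the length and GC trend removed, the Smo value was -0.050. Sufu was at 8.14 and 8.35 FPKM in Control against 8.37 and 6.01 in the Shh-Stk11 lungs. Of the 4 libraries, only Shh-Stk11 2 lay apart for Sufu. Its log2 fold change of -0.21 (95% confidence interval -0.65 to 0.22, limma adjusted p 0.634) was 0.022 without Shh-Stk11 2.

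Gli1 encodes an activating GLI factor whose own transcription depends on the pathway. Its level was 5.94 and 10.1 FPKM in Control 1 and 2, and 10.6 and 7.70 FPKM in Shh-Stk11 1 and 2. The Controls held the lowest value and the next to highest one, and their gap of 0.76 on the log2 scale was reached by 3.04% of all tested genes, against a median gap of 0.18. About 871 and 1234 reads stood behind the Control values. The log2 fold change of 0.21 had the widest interval of the 9 genes (95% confidence interval -0.45 to 0.88, limma adjusted p 0.766), and it was -0.17 without Control 1, 0.59 without Control 2 and -0.013 without Shh-Stk11 1. Arhgap9 and an antisense gene overlap 6.55% of the exonic bases of Gli1 on the opposite strand, and Arhgap9 was at 2.56 to 4.22 FPKM.

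Gli2 encodes the main activator and Gli3 the main repressor of the pathway. Gli2 was at 2.87 and 2.33 FPKM in Control against 3.28 and 2.75 in the Shh-Stk11 lungs (log2 fold change 0.21, 95% confidence interval -0.26 to 0.68, limma adjusted p 0.67). Gli3 was at 4.31 and 2.97 FPKM in Control against 5.58 and 4.21 in the Shh-Stk11 lungs (log2 fold change 0.43, 95% confidence interval -0.13 to 0.98, limma adjusted p 0.46). In both genes Control 2 was lowest and Shh-Stk11 1 highest, and the remaining libraries lay between them with the genotypes overlapping. With 1 library left out at a time, the log2 fold change went from 0.066 (without Control 2) to 0.35 (without Control 1) for Gli2, and from 0.16 to 0.69 for Gli3 with the same libraries left out. The ratio of Gli3 to Gli2, from FPKM as deposited, was 1.504 and 1.27 in Control and 1.70 and 1.53 in Shh-Stk11 lungs. With the length and GC trend removed, the log2 fold changes of Gli3 and Gli2 were close, at 0.26 and 0.23.

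Gli1 ranked the libraries unlike Ptch1 and Hhip. From lowest to highest, Ptch1 ran from Control 2 and Control 1 to Shh-Stk11 2 and Shh-Stk11 1. Hhip had the Controls in the same order, with Shh-Stk11 1 and Shh-Stk11 2 nearly tied above them (22.98 and 23.2 FPKM). Gli1 started with Control 1 and placed Control 2 above Shh-Stk11 2. Per ligand transcript, the Hhip to Shh ratio was 0.676 and 0.503 in Control and 0.854 and 0.789 in Shh-Stk11 lungs. The Ptch1 to Shh ratio was 0.749 and 0.697 in Control against 1.004 and 0.688 in the Shh-Stk11 lungs, so it was lowest in 1 Shh-Stk11 library and highest in the other. Both ratios are of FPKM as deposited. With the length and GC trend removed, Hhip and Shh had nearly equal log2 fold changes (0.205 and 0.203), and that of Ptch1 was 0.104.

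**Figure D2:**
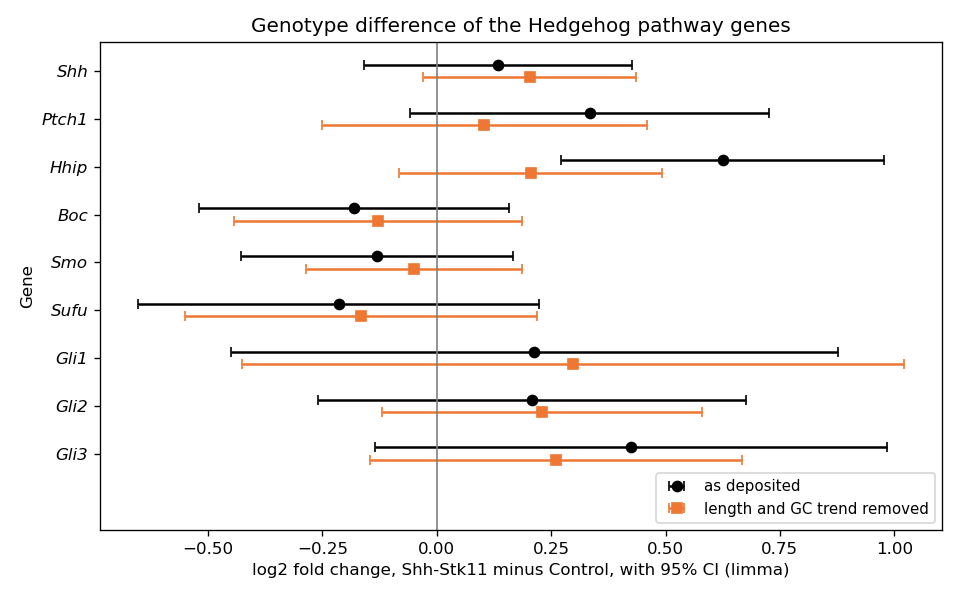
log2 fold change (Shh-Stk11 minus Control) of the 9 Hedgehog pathway genes with its 95% confidence interval from limma, for FPKM as deposited (black circles) and after removal of the trend on transcript length and GC content (orange squares). The interval of Hhip lies above 0 as deposited (0.27 to 0.98) and includes 0 after removal of the trend (-0.08 to 0.49), whereas those of the other 8 genes include 0 both ways.

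FPKM is scaled to length, so levels were set side by side between the genes. This is a description only, because the genotype difference still followed transcript length. Averaged over the 4 libraries, Shh was highest at 26.9 FPKM, followed by Smo (24.8), Ptch1 (21.1), Hhip (19.0), Boc (14.5), Gli1 (8.58), Sufu (7.72), Gli3 (4.27) and Gli2 (2.81). The Control libraries alone put Smo (25.9 FPKM) above Shh (25.6 FPKM) and Boc (15.45 FPKM) above Hhip (15.02 FPKM). Neighbours in the order over all libraries had overlapping ranges over the libraries, except that every Boc value exceeded every Gli1 value and every Sufu value exceeded every Gli3 value. Transcripts of the ligand, the receptor, the transducer and the ligand-binding HHIP thus stood above those of all 3 GLI factors in every library.

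The 4 Hedgehog genes with the longest transcripts were all on the positive side. Ptch1 (10383 bases), Hhip (9074), Gli3 (8170) and Gli2 (6637) had the longest annotated transcripts, and their log2 fold changes were all positive, with a median of 0.38. The other 5 genes, of 2847 to 4522 bases, had a median of -0.13, with Shh and Gli1 positive. Among all tested genes, the 1884 with a transcript of at least 6000 bases, a limit set after the values were seen, had a median of 0.15, and the 11750 shorter ones had -0.07. With the length and GC trend removed, the median of the 4 long Hedgehog genes was 0.22, and their values were 0.10 for Ptch1, 0.21 for Hhip, 0.26 for Gli3 and 0.23 for Gli2. The value of Shh then was 0.20 and that of Gli1 was 0.30. The part of transcript length in the higher values was not tested beyond this.

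**Figure D3:**
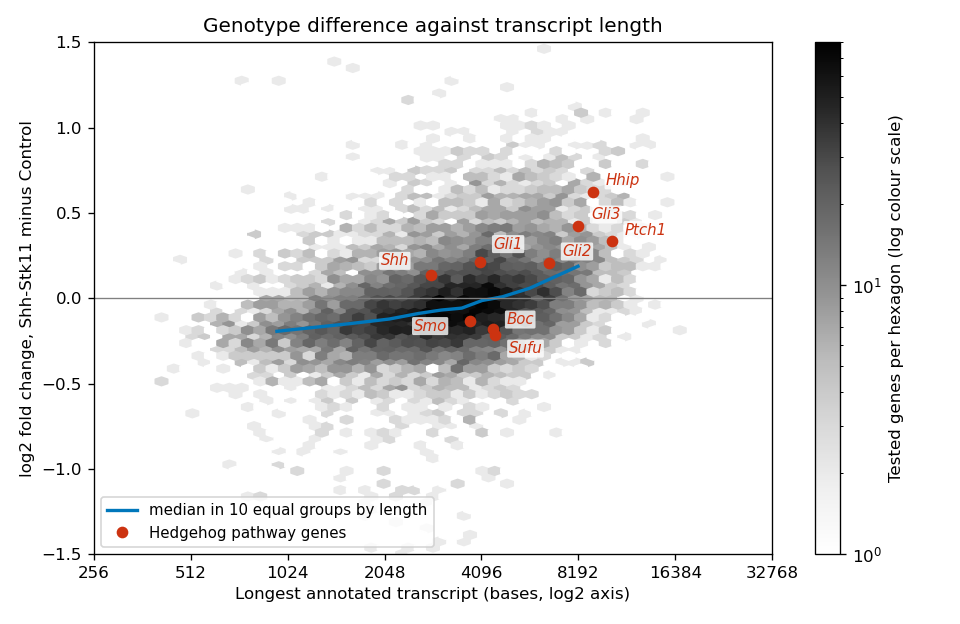
log2 fold change (Shh-Stk11 minus Control) against the longest annotated transcript (bases, log2 axis) for 13634 tested genes, in hexagons shaded by the number of genes, of which 272 lie outside the plotted range. The blue line gives the median in 10 equal groups by length and goes from -0.19 to 0.19. It ends at 8167 bases, short of Ptch1 and Hhip, and the Hedgehog genes (red) with long transcripts lie above 0.

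The other Hedgehog genes act in mesenchymal cells, whose markers did not keep the same level. Of 14 mesenchymal markers, 12 had a negative log2 fold change, with a median of -0.19 and none past the adjusted threshold. Their sum was 2442 and 2237 FPKM in Control against 1787 and 1951 in the Shh-Stk11 lungs. Relative to the mean of these markers on the log2 scale, Hhip lay at -1.29 and -1.66 in Control and at -0.69 and -0.60 in Shh-Stk11 lungs, 0.83 higher on average. Ptch1 lay at -1.14 and -1.19 in Control and at -0.46 and -0.79 in Shh-Stk11 lungs, 0.54 higher. The marker mean was lower in Shh-Stk11 lungs by 0.20, which this scale adds to the value of every gene. On it 5 of the 8 genes did not overlap and were higher, namely Ptch1, Hhip, Smo, Gli2 and Gli3, as were 43.1% of all tested genes, and Smo changed from the lower to the higher side. These are descriptions with no test, and the part of cell composition in them was not tested.

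Summed marker levels of other cell types did not overlap for 3 lists, all lower in Shh-Stk11 lungs. The 7 endothelial markers summed to 587 to 689 FPKM in Control and 474 to 506 FPKM in Shh-Stk11 lungs, the 9 red blood cell markers to 5696 to 5889 and 3813 to 4185 FPKM, and the 5 mesothelial markers to 86.3 to 105.3 and 50.5 to 68.2 FPKM. Of the red blood cell markers, Hba-x, an embryonic globin, was called lower (log2 fold change -1.49, limma adjusted p 0.0158). The other tested markers of these 3 lists did not pass the adjusted threshold. The sums overlapped for smooth muscle (8 markers, 488 to 551 and 460 to 542 FPKM), immune cells (6 markers, 84.1 to 88.9 and 70.8 to 110.7 FPKM) and heart muscle (6 markers, 42.7 to 72.0 and 21.6 to 49.4 FPKM). No marker of these lists was listed at 0 in all 4 libraries. Hba-a2 of the red blood cell list and Nppa of the heart muscle list were below 0.5 FPKM. The lung labels were met by Epcam at 95.5 to 119.9 FPKM and Nkx2-1, the lung lineage factor of the epithelium, at 169 to 207 FPKM.

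Beyond the 9 genes, 49 further genes of the pathway were listed by role, of which 47 were tested. None passed an adjusted p of 0.05 in limma in either direction, and 6 of the 47 had an unadjusted p under 0.05, with 3 higher and 3 lower, where 15.2% of all tested genes had one. Their median log2 fold change was -0.07, close to that of all tested genes.

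The ligand family and the genes of ligand release had negative log2 fold changes in all 5 tested genes, with a median of -0.38, which is the value of Scube2. None had an unadjusted p under 0.05. Scube2, which encodes a secreted protein that helps to release SHH, was the most highly expressed, at 9.01 FPKM in Control 1 and 4.68 to 5.02 FPKM in the other 3 libraries (log2 fold change -0.38, limma adjusted p 0.597). Without Control 1 its log2 fold change was 0.087. Ihh, the ligand of cartilage and gut, was not tested, with values that corresponded to 3.03, 5.04, 1.01 and 2.01 reads. Disp1, which encodes the transporter that exports SHH, was listed at 0 in all 4 libraries and was not tested. Whether this 0 reflects the lung or the way the table was made cannot be told from the values.

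Among 9 receptors and co-receptors the median was -0.04. Cdon, a co-receptor related to Boc, was at 4.15 and 5.22 FPKM in Control against 7.71 and 6.72 in the Shh-Stk11 lungs (log2 fold change 0.62, 95% confidence interval 0.21 to 1.03, limma adjusted p 0.141). It was thus higher in both Shh-Stk11 libraries, as were 19.2% of all tested genes, whereas Boc had a negative fold change. With the length and GC trend removed, the Cdon value was 0.48 (95% confidence interval -0.04 to 0.99, limma adjusted p 0.380). Lrp2, which encodes the endocytic receptor megalin, was low, at 0.591 and 0.249 FPKM in Control against 0.772 and 1.11 in the Shh-Stk11 lungs (log2 fold change 1.07, limma adjusted p 0.308). The Lrp2 value was 0.57 without Control 2, 1.56 without Control 1 and 0.46 with a pseudocount of 1. Gpc3, a glypican that competes with PTCH1 for ligand, was the most highly expressed, at 200.2 and 210.4 FPKM in Control against 188.9 and 201.3 in the Shh-Stk11 lungs, with a log2 fold change of -0.07 (95% confidence interval -0.40 to 0.25, limma adjusted p 0.843).

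The 22 genes that act between SMO and the GLI factors had a median of -0.08, with 6 positive and 16 negative values. Stk36, related to the fly kinase Fused, was at 4.03 and 3.24 FPKM in Control against 1.76 and 1.97 in the Shh-Stk11 lungs (log2 fold change -0.92, 95% confidence interval -1.38 to -0.46, limma adjusted p 0.0741). In the mouse, Stk36 is known to be dispensable for Hedgehog signalling and needed for the central pair of motile cilia. The other 21 genes lay between -0.31 and 0.22. Csnk1a1, a kinase that phosphorylates GLI proteins, was the most highly expressed, with a Control mean of 185.3 ± 10.9 FPKM and a Shh-Stk11 mean of 197.9 ± 3.06 FPKM (SD, n = 2). Its log2 fold change was 0.10, with an adjusted p of 0.788 in limma.

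Genes reported to respond to SHH in lung mesenchyme or other tissues did not move in a single direction. Of 11 tested, 7 were positive and 4 negative, with a median of 0.06. Foxf1, listed under the older symbol Foxf1a, and Foxf2 encode forkhead factors of the lung mesenchyme. Foxf1a was at 42.0 and 38.3 FPKM in Control against 34.0 and 28.6 in the Shh-Stk11 lungs (log2 fold change -0.36, limma adjusted p 0.281), and without Shh-Stk11 2 the value was -0.24. Foxf2 was at 21.4 and 22.95 FPKM in Control against 17.2 and 16.3 in the Shh-Stk11 lungs (log2 fold change -0.40, limma adjusted p 0.169). Both had their Shh-Stk11 values below both Controls, as did 27.6% of all tested genes, whereas Ptch1 and Hhip had theirs above. Of the 11 genes, 4 were lower and 2 higher without overlap. Corrected for length and GC content, Foxf1a was at -0.27 and Foxf2 at -0.28, against 0.10 for Ptch1 and 0.21 for Hhip. The mean of the mesenchymal markers was itself lower in Shh-Stk11 lungs, by 0.20 on the log2 scale. Its part in the Foxf1a and Foxf2 values was not tested. Ccnd2, which encodes cyclin D2, was at 29.7 and 22.0 FPKM in Control against 49.6 and 37.4 in the Shh-Stk11 lungs (log2 fold change 0.75, 95% confidence interval 0.27 to 1.23, limma adjusted p 0.127). The study itself named Ccnd2 among the significantly upregulated genes that promote proliferation. Ccnd1, the most highly expressed of the 11, was at 51.5 and 54.7 FPKM in Control against 64.7 and 55.3 in the Shh-Stk11 lungs (log2 fold change 0.17, limma adjusted p 0.598). With 1 Shh-Stk11 library left out, its value was 0.060 (Shh-Stk11 1) or 0.29 (Shh-Stk11 2).

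**Figure D4:**
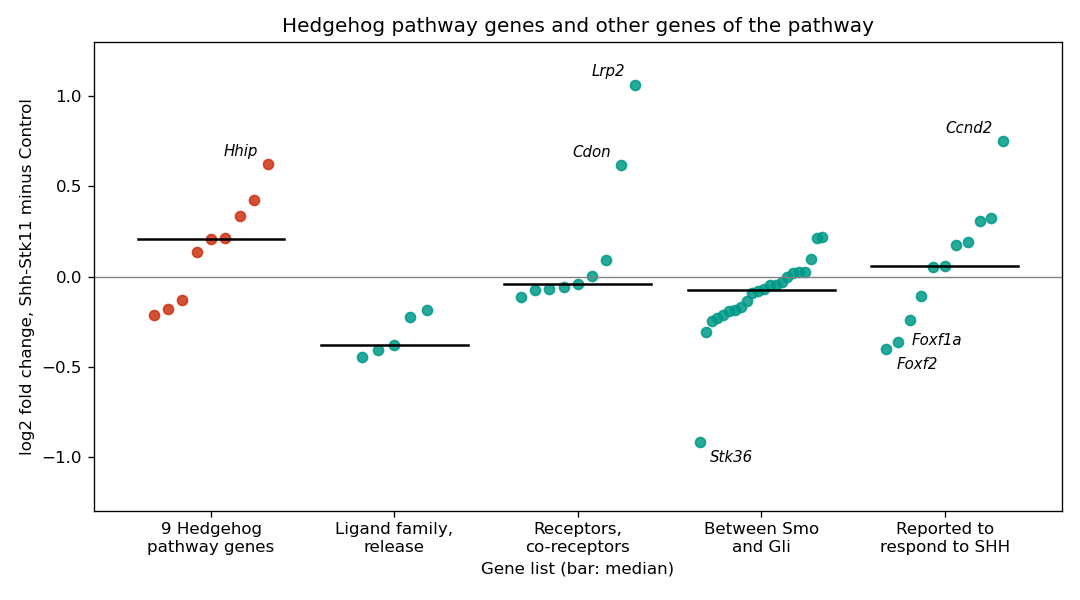
log2 fold change (Shh-Stk11 minus Control) of each tested gene in the 9 Hedgehog pathway genes (red) and in the 4 role lists (green), with bars for the medians and names for genes with an unadjusted p under 0.05. The median is 0.21 for the 9 genes and -0.38 for ligand release, and the named genes lie on both sides of 0.

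The genes most like Shh and Ptch1 in pattern over the 4 libraries were sought among the 9077 genes whose mean reached 5 FPKM. The likeness was the Euclidean distance between the log2 values after subtraction of each gene's mean. Nearest to Shh were Crip2 (distance 0.025), Zdhhc13 (0.0263) and Stxbp3a (0.0291), and 1311 genes lay within 0.2, so that many genes shared its nearly flat pattern. Nearest to Ptch1 were Tpr (0.0468), Gse1 (0.0559) and Slc38a1 (0.0741), with 90 genes within 0.2. These genes shared with Ptch1 a value in Shh-Stk11 1 above those of the other libraries, for example at 10.35 FPKM for Tpr, against 6.74 to 7.50 FPKM.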

How the data were processed

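Total RNA of E16.5 lungs was sequenced as single-end 50-base reads. The methods of the study speak of independent biological replicates, and the labels give neither litter nor sex. The authors deposited 1 table, which gave FPKM values for 22556 genes in 4 libraries. The submitters' processing notes named TopHat2 2.0.13, Cufflinks 2.2.1 and the builds GRCm38 and mm9, with no role given, and the annotation was not given in the sources used here, so gene positions of the table were not used. Depth was estimated as the number of reads for which values under 0.3 FPKM of single-transcript genes of at least 2000 bases were whole reads after 220 bases were taken off the length (72.0% to 77.6% within 0.1 read).

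From the FPKM values, limma 3.58.1 (R 4.3.3) was fitted to log2(FPKM + 0.1) over the 13770 genes whose mean reached 0.5 FPKM, with genotype as the only term, a trend in eBayes (4.48 prior and 2 residual degrees of freedom), two-sided tests and Benjamini-Hochberg adjustment over all genes tested. Fold changes on this scale understate those of low genes. With 2 libraries a genotype, the smallest two-sided p of an exact permutation test is 0.333, hence the use of variance shared across genes.

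For 99.0% of tested genes the longest GENCODE M21 transcript gave a length and a GC content, and the trend was removed by loess per library. Markers and role lists were matched by symbol, with Foxf1 through a synonym. The values of 1 marker list are not reported here. Relative levels were set against the mean log2 of the 12 epithelial or 14 mesenchymal markers. The 9 genes and the lists were chosen with earlier results of these data known. By rule the text names these 9, Stk11, Epcam, Nkx2-1, members of the role lists with an unadjusted p under 0.05, the highest member of each role list, its untested members, and the 3 genes nearest to Shh and to Ptch1 (predicted and small RNA genes left out of these 3). Marker lists are given by sums and counts. Ddx3y, Sftpc, Hba-x, Hba-a2, Nppa, 9530036O11Rik, Gm26894 and Arhgap9 were named after their values were seen. The alternatives were pseudocounts of 1 and 0.01, filters at 0.1 FPKM and none, quantile and median-ratio scaling, the length and GC correction, eBayes without a trend, replicate number as a block, and each library left out. The block with the length and GC correction, and the crossed block, were added after the data were seen.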

Additional observations from a re-analysis of the deposited data

How the results depend on the processing

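None of the 9 Hedgehog genes passed the limma threshold in any of 15 alternatives, with the lowest adjusted p at 0.0579. In the 4 of these that leave out a library, the lone library was assumed to vary like the other genotype. Gli1 and Sufu changed sign, only when a library was left out (Gli1 -0.17 to 0.59, Sufu -0.45 to 0.022). The other 7 genes kept their direction in these 15. Of the other pathway genes named, Scube2 changed sign when a library was left out (-0.84 to 0.087), Gpc3 with quantile normalization (0.033) and Csnk1a1 with the correction for length and GC content, with and without the block (-0.0087). Over all genes, 135 were higher and 178 lower in Shh-Stk11 lungs. These counts were 20 and 41 with no filter on low values, 85 and 115 after correction for length and GC content, 6 and 7 with the replicate block, and 9 and 12 with block and correction together, and they ranged from 15 to 64 and from 23 to 127 when 1 library was left out. The log2 fold change of Stk11 lost its call at -0.67 (pseudocount 1), -0.69 (filter of 0.1 FPKM, no filter, eBayes without a trend, replicate block), -0.62 (quantile normalization), -0.65 (median-ratio scaling), -0.60 (length and GC trend removed, with and without the block), and at -0.78 to -0.60 when 1 library was left out. The cause was not tested. The labels do not say that a replicate number marks a litter or batch, and same-numbered libraries deviated with a correlation of -0.114 across genes. With Control 1 paired crosswise with Shh-Stk11 2, 360 genes were higher and 315 lower, with 0 of the 9 Hedgehog genes and 1 of the other pathway genes, Stk36, called.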
